A study of Arabidopsis thaliana with 8 samples.

Results

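The core genes of the Arabidopsis circadian clock were followed through lincomycin treatment and a cell-wall mutation. They were chosen by locus identifier, and 10 of the 36917 loci in the deposited tables qualified: CCA1 (AT2G46830), LHY (AT1G01060), PRR9 (AT2G46790), PRR7 (AT5G02810), PRR5 (AT5G24470), TOC1 (AT5G61380), GI (AT1G22770), ELF3 (AT2G25930), ELF4 (AT2G40080) and LUX (AT3G46640). All 10 passed the filter on low values. That filter required at least 10 normalized counts (reads scaled by 1 factor per library) in at least 2 libraries.

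Seedlings of Arabidopsis thaliana were sampled at 5 days of age. The 4 groups, of 2 libraries each, crossed genotype (wild type Col-0 or the mutant irx3-2) with medium (plain MS, or MS supplemented with lincomycin at 50 µg/ml). Every group grew under continuous light of 100 µmol photons per square metre per second at 22 °C with 1% sucrose. The question posed by the series is whether a defect in secondary cell-wall synthesis lessens what lincomycin does to early chloroplast development. Lincomycin blocks protein synthesis on plastid ribosomes. IRX3 encodes the cellulose synthase CESA7 of secondary walls, and irx3-2 is 1 mutant line, so an effect of the gene cannot be told apart from another difference carried by that line. The labels give no clock time of harvest and do not say that replicates were grown separately, so p-values measure only the spread between these samples, which may be technical.

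The clock is a loop of transcription factors that repress one another in turn through the day. The morning MYB-like proteins CCA1 and LHY repress evening genes, the pseudo-response regulators PRR9, PRR7, PRR5 and TOC1 repress CCA1 and LHY in sequence, and the evening complex of ELF3, ELF4 and LUX represses genes of the day at night. GI is an evening-phased protein that stabilises the F-box protein ZTL, which in turn targets TOC1 and PRR5 for degradation. In continuous light the loop runs without outside timing cues, from the phase it had at its start.

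The promoters of 6 clock genes are shown because they carry the contrast described below: LHY, which rose on lincomycin, its close relative CCA1, the genes PRR5, GI and LUX that fell, and TOC1. Each runs from 250 bases before to 50 bases after the annotated start of the gene in RefSeq TAIR10.1, 5′ to 3′ on the strand of the gene. The annotated start of PRR5 falls on the letters atg. Its window may thus be set by the start codon, and its motif positions may not be comparable with those of the other genes. Capitals mark the evening element (AAAATATCT), the CCA1-binding site (AAAAATCT), the G-box (CACGTG) and the LUX-binding site (GATACG or GATTCG), each searched on both strands. LHY lies at chr1:37822-38121 on the minus strand, CCA1 at chr2:19245341-19245640 on the plus strand, PRR5 at chr5:8358497-8358796 on the minus strand, TOC1 at chr5:24674713-24675012 on the plus strand, GI at chr1:8061501-8061800 on the plus strand and LUX at chr3:17182792-17183091 on the plus strand.
LHY: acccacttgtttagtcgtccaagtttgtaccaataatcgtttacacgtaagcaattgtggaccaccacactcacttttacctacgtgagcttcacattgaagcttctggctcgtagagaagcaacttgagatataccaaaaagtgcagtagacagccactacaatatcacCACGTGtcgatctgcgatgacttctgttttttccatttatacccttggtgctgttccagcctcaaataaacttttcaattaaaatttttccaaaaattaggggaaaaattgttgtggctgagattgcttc
CCA1: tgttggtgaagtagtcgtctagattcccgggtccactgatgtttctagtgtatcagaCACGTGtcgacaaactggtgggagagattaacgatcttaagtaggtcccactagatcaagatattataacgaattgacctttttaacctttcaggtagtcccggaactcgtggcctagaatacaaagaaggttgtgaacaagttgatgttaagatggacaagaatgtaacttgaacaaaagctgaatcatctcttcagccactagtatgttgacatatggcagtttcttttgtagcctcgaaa
PRR5: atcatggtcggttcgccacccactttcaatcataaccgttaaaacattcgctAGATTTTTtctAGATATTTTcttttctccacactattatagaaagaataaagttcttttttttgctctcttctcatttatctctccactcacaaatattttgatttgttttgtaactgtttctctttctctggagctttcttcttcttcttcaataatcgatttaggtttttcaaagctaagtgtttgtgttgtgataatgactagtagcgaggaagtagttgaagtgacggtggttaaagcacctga
TOC1: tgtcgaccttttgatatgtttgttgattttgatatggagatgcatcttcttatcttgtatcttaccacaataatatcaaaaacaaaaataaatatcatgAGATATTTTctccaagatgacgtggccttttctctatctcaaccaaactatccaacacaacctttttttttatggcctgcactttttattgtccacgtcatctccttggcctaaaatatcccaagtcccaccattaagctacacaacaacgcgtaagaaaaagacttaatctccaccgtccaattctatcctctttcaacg
GI: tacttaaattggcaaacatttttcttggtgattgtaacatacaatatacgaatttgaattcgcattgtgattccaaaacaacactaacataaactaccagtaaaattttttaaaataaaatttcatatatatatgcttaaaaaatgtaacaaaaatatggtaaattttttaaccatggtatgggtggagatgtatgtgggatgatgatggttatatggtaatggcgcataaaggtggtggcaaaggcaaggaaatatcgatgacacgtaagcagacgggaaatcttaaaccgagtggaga
LUX: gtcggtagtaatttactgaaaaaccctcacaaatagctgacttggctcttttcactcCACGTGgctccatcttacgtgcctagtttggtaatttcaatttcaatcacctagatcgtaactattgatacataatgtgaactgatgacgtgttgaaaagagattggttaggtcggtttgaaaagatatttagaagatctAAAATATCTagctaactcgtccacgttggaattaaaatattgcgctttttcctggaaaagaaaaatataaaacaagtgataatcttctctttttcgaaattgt

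The evening element, the sequence through which CCA1 and LHY bind evening genes, was found in 4 of the 10 promoters, those of PRR9, PRR5, TOC1 and LUX, and in 2.82% of 27443 promoters of the same length. The G-box, bound by bHLH and bZIP factors of light signalling, was found in 5, those of CCA1, LHY, PRR9, PRR7 and LUX, against 7.68% of all promoters. The CCA1-binding site was found in PRR5 alone, against 7.88% of all promoters, and the LUX-binding site in PRR9, ELF3 and ELF4, against 14.5%. LHY and CCA1 thus share a G-box, which LUX also carries. PRR5 and LUX, which fell on lincomycin, and TOC1, which did not pass the test there, share an evening element. These matches did not sort the genes by response. The GI window held none of these letters, from which nothing follows about the factors. A match is a description of the letters and not a site of binding.

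**Figure D1:**
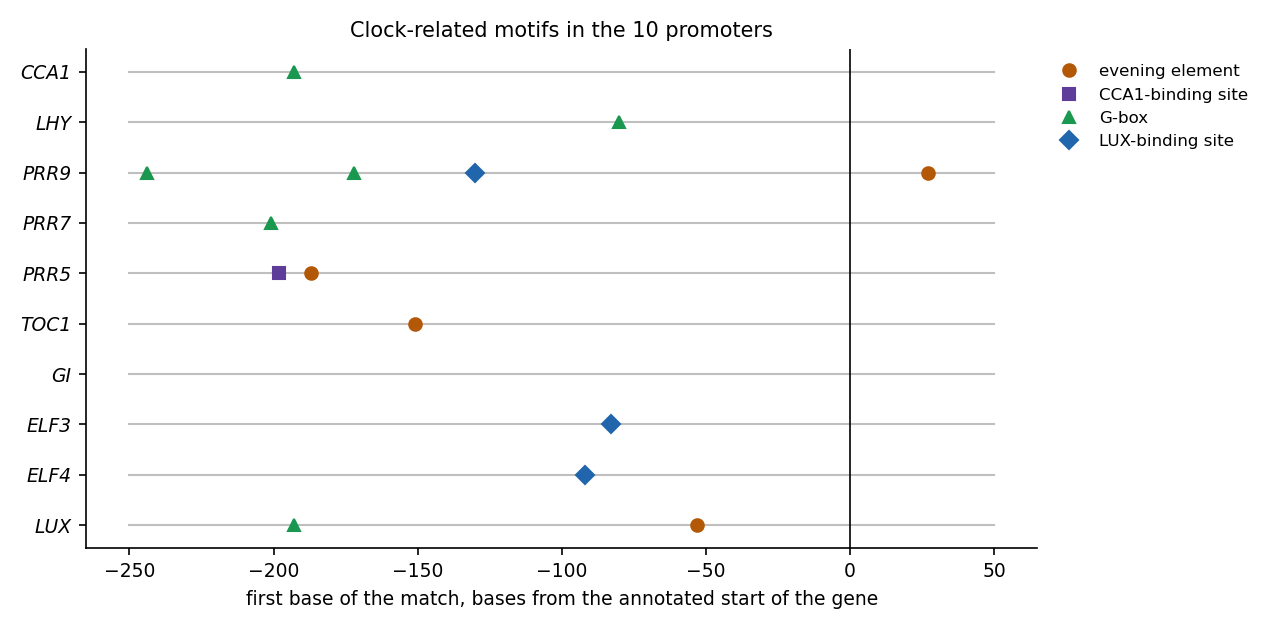
Position of each motif match in the promoters of the 10 clock genes, in bases from the annotated start of the gene (x axis, 0 is the start). For PRR5 that start may be the start codon. Each grey line is a searched window of 250 bases before to 50 bases after the start; G-boxes appear in 5 promoters, evening elements in 4, LUX-binding sites in 3 and the CCA1-binding site in 1.

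IRX3 (AT5G17420), the gene named by the mutant, stood at 265 and 278 normalized counts in wild type on MS and at 222 and 209.6 on lincomycin, 712 and 711 in irx3-2 on MS, and 294 and 401 on lincomycin. Its transcript was thus higher in irx3-2, and its level does not check a mutation whose nature the labels do not give. The libraries held 15032240 to 19488440 reads. The share of reads from plastid genes was 54.1% to 58.1% on MS and 18.8% to 20.7% on lincomycin, so nuclear genes had 6656099 to 8164824 reads on MS and 12364222 to 13793986 on lincomycin. Of 16 markers of 8 tissues and cell types, 16 were above 0 in every library. The summed level of the mesophyll markers RBCS1A and CA1, which encode plastid-located photosynthesis proteins, was 193215 to 253345 normalized counts in wild type on MS and 15804 to 16982 on lincomycin. It was 228276 to 331478 in irx3-2 on MS and 16315 to 16977 on lincomycin. That of the root hair markers EXPA7 and COBL9 was 93.1 to 135 and 20.9 to 28.8 in wild type, and 37.2 to 122 and 22.7 to 44.4 in irx3-2, in the same order. COBL9 alone had a log2 difference of 0.13 in irx3-2. Other sets also moved beyond their ranges in wild type. The shoot meristem marker STM went from 10.2 to 24.5 up to 58.8 to 71.3. Epidermis markers went from 2284 to 2328 up to 3169 to 3221, and phloem markers from 1995 to 2470 up to 2541 to 2629. Xylem markers went from 719 to 846 down to 473 to 537, and root markers from 639 to 858 down to 479 to 480. Of the root markers, SHR alone was estimated higher there (log2 0.53). In irx3-2 the meristem, epidermis, xylem and root sets moved in the same directions. There the epidermis markers ATML1 and PDF1, each taken alone, overlapped between media. Of the root set PHT1;1 alone was called in irx3-2 (log2 −2.14, limma adjusted p = 3.17e-04), and SHR was estimated at 0.06. Phloem markers in irx3-2 went from 2298 to 2586 down to 1839 to 2108. Guard cell markers in irx3-2 went from 450 to 529 down to 287 to 290. The part of these shifts in the clock results was not tested. In such bulk samples, fewer cells of a type and less RNA per cell cannot be told apart.

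Per kilobase of exon, the clock genes spanned a wide range of levels. Averaged over the 8 libraries, LHY stood at 445 normalized counts per kilobase (289.8 to 575 over libraries) and TOC1, an evening repressor, at 383 (323 to 456). ELF3, the scaffold of the evening complex, stood at 269 (229.8 to 324) and CCA1 at 228 (214 to 250.3). ELF4 at 129 (57.2 to 251), PRR5 at 127 (70.9 to 179), LUX at 113 (77.7 to 170.2), PRR7 at 105 (81.6 to 127) and GI at 100.3 (57.4 to 148) followed. Over all groups, the range of each gene down to GI overlapped that of its neighbours in this order. Within libraries TOC1 was above ELF3 in 8 of 8, ELF3 above CCA1 and CCA1 above ELF4 in 7 each, and LHY above TOC1 in 6, whereas the neighbours from ELF4 down to GI held their order in only 4 or 5 of 8. PRR9 was lowest at 9.96 (2.87 to 24.8), below the range of every other member, and rested on 8 to 40 reads per library. The 1677 exon bases of PRR5 may leave out untranslated parts, since its annotated start falls on an atg. Its level per kilobase and its place in the order may thus be too high.

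Lincomycin moved 4 of the 10 clock genes in wild type: LHY rose and GI, LUX and PRR5 fell, by limma with Benjamini-Hochberg adjustment over 20251 genes at 0.05. Of all genes tested 29.2% were called in this comparison, 12.0% higher and 17.2% lower, so 4 of 10 is near that background. In irx3-2, 3 of the 10 were called, LHY higher and GI and PRR5 lower, against 33.8% of all genes, 15.8% higher and 18.0% lower. That count too is near the background. The members' median log2 difference was −0.07 in wild type and −0.14 in irx3-2, beside 0.02 and 0.04 over all genes. In all, 4 members were called by lincomycin in at least 1 genotype and 3 of them in both.

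**Figure D2:**
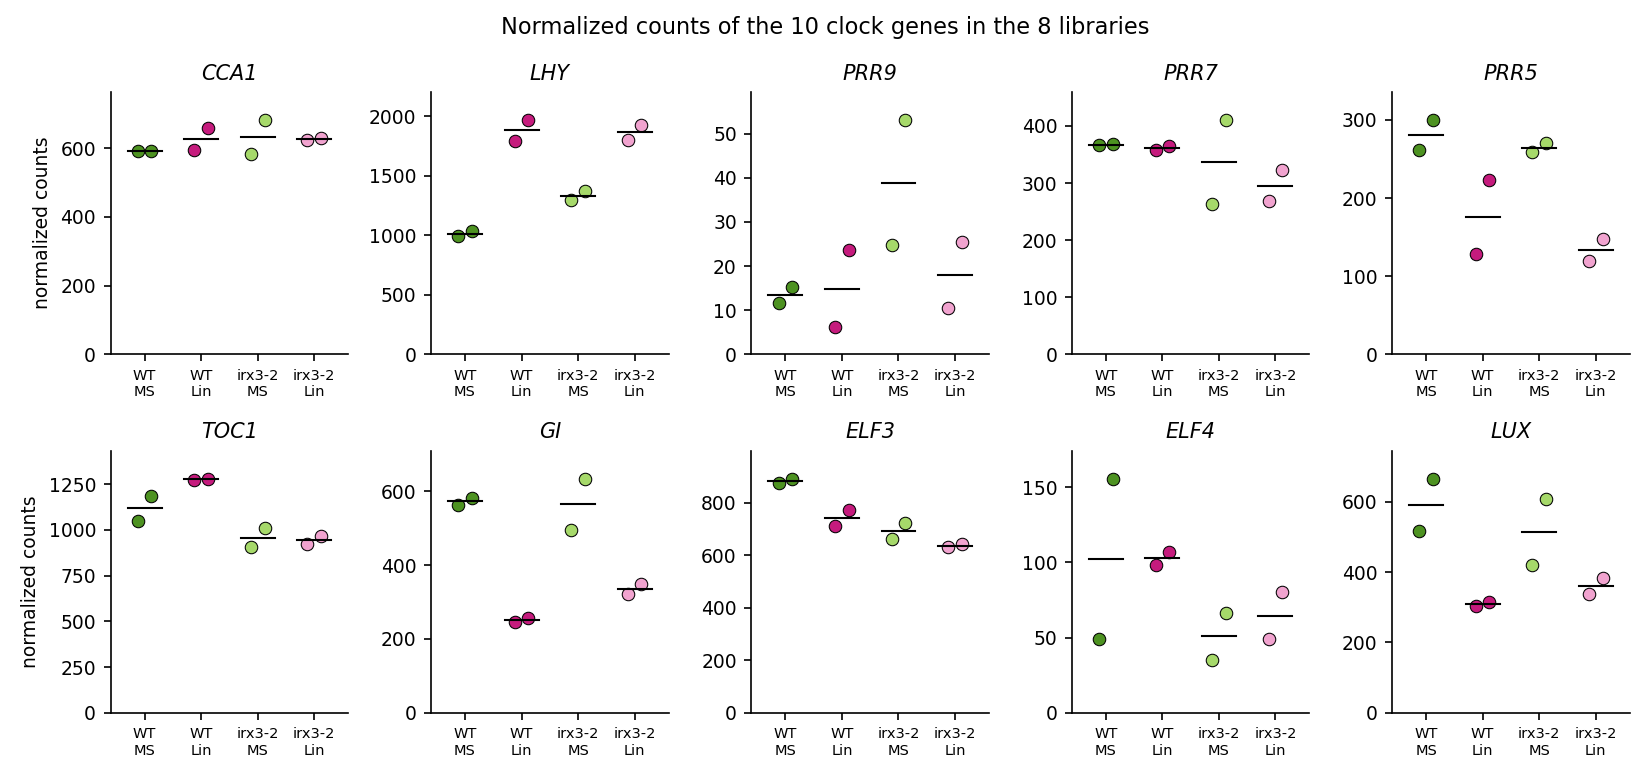
Normalized counts (y axis, each panel from 0) of the 10 clock genes in wild type (WT) and irx3-2 on MS and lincomycin (Lin); each point is a library and each bar the mean of 2. LHY is higher and GI, LUX and PRR5 are lower in every lincomycin library than in every MS library of the same genotype.

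The morning genes parted ways. LHY stood at 991 and 1033 normalized counts in wild type on MS and at 1967 and 1794 on lincomycin. In irx3-2 it stood at 1293 and 1369.8 on MS and at 1923 and 1803 on lincomycin. Within each genotype every lincomycin library was above every MS library, and the 4 lincomycin libraries of the 2 genotypes overlapped. LHY was 1.86-fold higher on lincomycin in wild type (log2 difference 0.89 ± 0.10, SE, limma adjusted p = 5.43e-05) and 1.40-fold higher in irx3-2 (0.48 ± 0.10, adjusted p = 0.00315), on the log2 scale of normalized count plus 1. This rise was called in each of the 8 fits that left out a library and under every other setting tried, in both genotypes.

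CCA1, a close relative of LHY that acts with it, stood at 591 and 592 normalized counts in wild type on MS and at 659.6 and 594 on lincomycin. In irx3-2 it stood at 582 and 681 on MS and at 625 and 629 on lincomycin. The lincomycin values lay just above the MS values in wild type and inside them in irx3-2. The log2 difference was 0.08 (95% interval −0.18 to 0.34, limma adjusted p = 0.656) in wild type and −0.01 (−0.27 to 0.26, adjusted p = 0.972) in irx3-2. CCA1 was therefore not called, and the upper bounds of the intervals were 1.27-fold and 1.19-fold. The ratio of LHY to CCA1 within a library does not depend on how libraries are scaled. It was 1.68 and 1.74 on MS against 2.98 and 3.02 on lincomycin in wild type, and 2.22 and 2.01 against 3.08 and 2.87 in irx3-2. All 4 lincomycin libraries thus held more LHY per CCA1 than all 4 MS libraries, and on MS both irx3-2 libraries lay above both wild-type libraries.

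Among the pseudo-response regulators, PRR5 fell on lincomycin. PRR5, which represses CCA1 and LHY late in the day, stood at 262 and 299.7 normalized counts in wild type on MS and at 222 and 128 on lincomycin. In irx3-2 it stood at 269.9 and 258 on MS and at 148 and 119 on lincomycin. All lincomycin libraries lay below all MS libraries, but the wild-type lincomycin pair differed by 1.73-fold. PRR5 was 1.65-fold lower in wild type (log2 difference −0.73 ± 0.24, SE, limma adjusted p = 0.0438) and 1.99-fold lower in irx3-2 (−0.99 ± 0.24, adjusted p = 0.00914). The wild-type call held in 3 of the 8 fits that left out a library; without replicate 3 of wild type on lincomycin the log2 difference was −0.33 with an adjusted p of 0.368. The irx3-2 call held in 7 of 8, and without replicate 3 of irx3-2 on lincomycin its adjusted p was 0.0828.

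PRR7, PRR9 and TOC1 were not called for lincomycin in either genotype. PRR7, which represses CCA1 and LHY in the day, stood at 366 and 368 normalized counts in wild type on MS and 365 and 358 on lincomycin, and at 410.3 and 264 in irx3-2 on MS and 322 and 268 on lincomycin. Its wild-type libraries lay within a narrow band, while its irx3-2 libraries spread more widely and overlapped between media. The log2 difference was −0.02 (95% interval −0.45 to 0.41) in wild type and −0.16 (−0.59 to 0.27) in irx3-2. PRR9, the morning member of the family, stood at 15.3 and 11.6 in wild type on MS and 23.5 and 6.15 on lincomycin, and at 24.8 and 53.1 in irx3-2 on MS and 25.5 and 10.5 on lincomycin. At these few reads its groups overlapped, and intervals of −1.64 to 1.40 in wild type and −2.62 to 0.42 in irx3-2 on the log2 scale leave its response undetermined at this depth.

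TOC1, also named PRR1, stood at 1049 and 1187 normalized counts in wild type on MS and at 1281 and 1274 on lincomycin. In irx3-2 it stood at 1011 and 906 on MS and at 966 and 926 on lincomycin. The wild-type lincomycin pair lay above the MS pair, whereas the irx3-2 pairs overlapped. The log2 difference was 0.19 (95% interval −0.04 to 0.43, limma adjusted p = 0.202) in wild type and −0.02 (−0.25 to 0.22, adjusted p = 0.918) in irx3-2.

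GI had the largest fall of the 10 members in wild type. It stood at 564 and 583 normalized counts in wild type on MS and at 247 and 258 on lincomycin, and at 635 and 496 in irx3-2 on MS and 322 and 349 on lincomycin. Every lincomycin library lay below every MS library, and the irx3-2 lincomycin pair lay above the wild-type lincomycin pair. GI was 2.27-fold lower in wild type (log2 difference −1.18 ± 0.14, SE, limma adjusted p = 1.09e-04) and 1.67-fold lower in irx3-2 (−0.74 ± 0.14, adjusted p = 0.00237). Both calls held in all 8 fits that left out a library. Within a library, TOC1 to GI was 1.86 and 2.03 in wild type on MS and 5.18 and 4.95 on lincomycin, against 1.59 and 1.83 and then 2.998 and 2.65 in irx3-2.

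In the evening complex, LUX fell in wild type. LUX, the DNA-binding MYB-like subunit, stood at 516 and 666 normalized counts in wild type on MS and at 316 and 304 on lincomycin, and at 607 and 419 in irx3-2 on MS and 384 and 339 on lincomycin. Its lincomycin libraries all lay below its MS libraries. LUX was 1.89-fold lower in wild type (log2 difference −0.92 ± 0.19, SE, limma adjusted p = 0.00368), and its irx3-2 difference of −0.48 (95% interval −0.89 to −0.07) had an adjusted p of 0.0671. On the recovered reads the irx3-2 fall had an adjusted p of 0.0430 with edgeR's quasi-likelihood test and 0.0467 with DESeq2. The authors' deposited table, from DESeq2, gave it an adjusted p of 0.0640. Scaled to the nuclear protein-coding total the irx3-2 difference was −0.05 and was not called. In the fits that left out a library it ran from −0.75 to −0.22. Of the exon bases of LUX, 17.8% are covered by a gene on the opposite strand (AT3G46650), and the strand setting of the counting is not stated, so reads of these 2 genes could be mixed there.

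ELF3 and ELF4 were not called. ELF3 stood at 876 and 892 normalized counts in wild type on MS and 774 and 712 on lincomycin, and at 722 and 664 in irx3-2 on MS and 632 and 642 on lincomycin. The lincomycin libraries lay below the MS libraries in each genotype, with log2 differences of −0.25 (95% interval −0.49 to −0.02, limma adjusted p = 0.101) and −0.12 (−0.35 to 0.11, adjusted p = 0.416). ELF4, a small helper protein of ELF3, stood at 49.0 and 156 in wild type on MS and 107 and 98.4 on lincomycin, and at 66.1 and 35.4 in irx3-2 on MS and 80.2 and 49.0 on lincomycin. Its MS pair in wild type differed by 3.13-fold, all groups of a genotype overlapped, and its intervals of −0.87 to 1.32 and −0.73 to 1.46 on the log2 scale were wide.

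**Figure D3:**
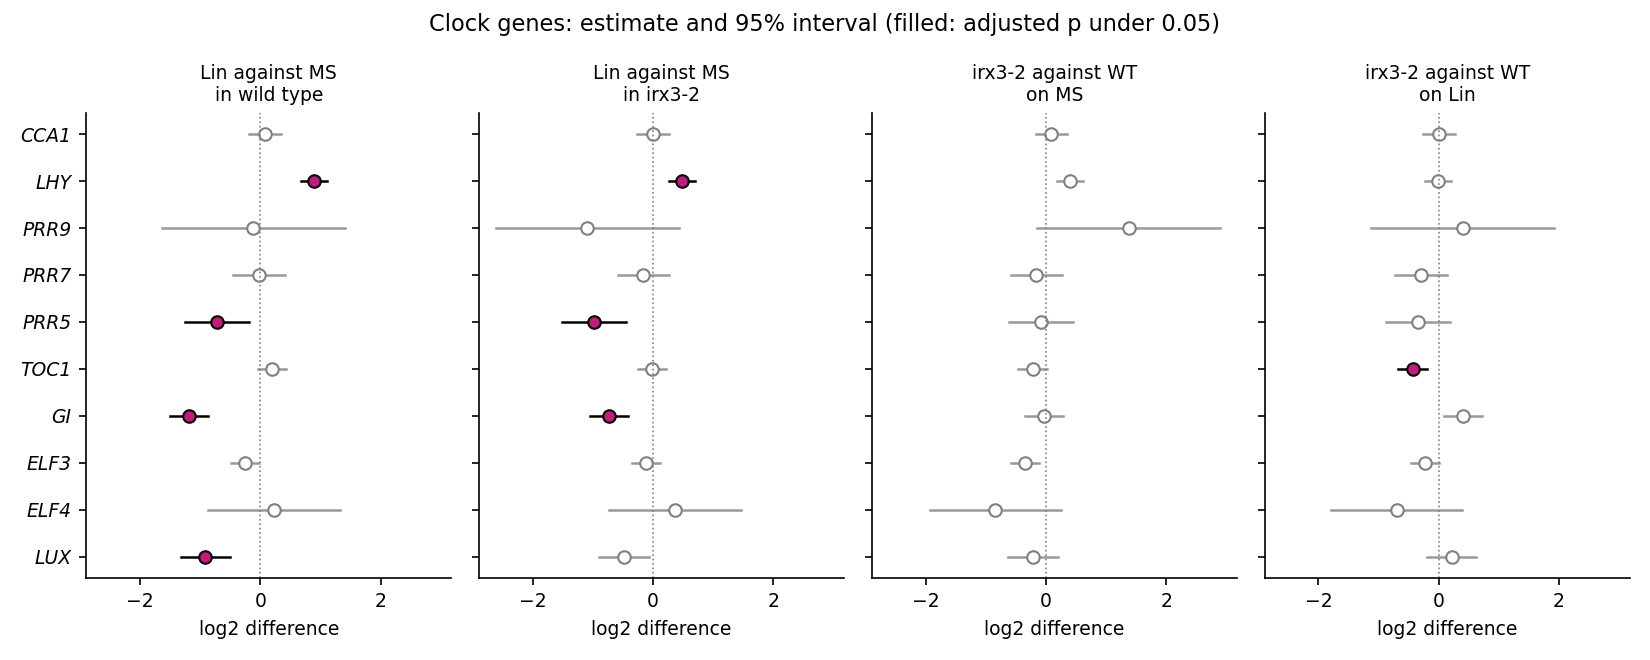
Log2 difference (x axis) of each clock gene with its 95% interval in the 4 pairwise comparisons; filled points passed an adjusted p of 0.05 in limma over 20251 genes. LHY lies at 0.89 and 0.48 and GI at −1.18 and −0.74 for lincomycin in wild type and irx3-2, and TOC1 at −0.43 is the only filled point between genotypes.

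These directions depend in part on how libraries are put on 1 scale. When libraries were scaled to the total of nuclear protein-coding reads, the median of all genes moved up by 0.46 on the log2 scale for lincomycin in wild type and by 0.43 in irx3-2. The split of calls over all genes then went from 2431 higher and 3490 lower to 8394 and 2101 in wild type, and from 3197 and 3638 to 8264 and 2169 in irx3-2. Among the clock genes LHY, CCA1 and TOC1 were then called higher and GI lower in wild type, and LHY, CCA1, TOC1 and ELF3 higher in irx3-2. LHY rose by 1.35 and 0.92 on that scale and GI fell by 0.72 in wild type, while GI in irx3-2 (−0.31, adjusted p = 0.117), LUX in wild type (−0.46, adjusted p = 0.0790) and PRR5 (−0.27, adjusted p = 0.373 in wild type; −0.56, adjusted p = 0.0763 in irx3-2) were not called. Ratios within a library stay as they are under any scaling. LHY to GI was 1.76 and 1.77 on MS, then 7.96 and 6.96 on lincomycin in wild type, and 2.04 and 2.76, then 5.97 and 5.17 in irx3-2. TOC1 to LUX was 2.03 and 1.78, then 4.05 and 4.19 in wild type, and 1.66 and 2.16, then 2.52 and 2.73 in irx3-2. TOC1 to PRR5 was 4.01 and 3.96, then 5.76 and 9.91 in wild type, and 3.74 and 3.51, then 6.54 and 7.79 in irx3-2. Each of these ratios was higher in all 4 lincomycin libraries than in all 4 MS libraries. Each pair set LHY or TOC1 over a gene called lower in wild type, so this split follows in part from the choice of pairs. CCA1 to TOC1 showed no such split, at 0.564 and 0.499, then 0.515 and 0.466 in wild type, and 0.576 and 0.752, then 0.647 and 0.680 in irx3-2.

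**Figure D4:**
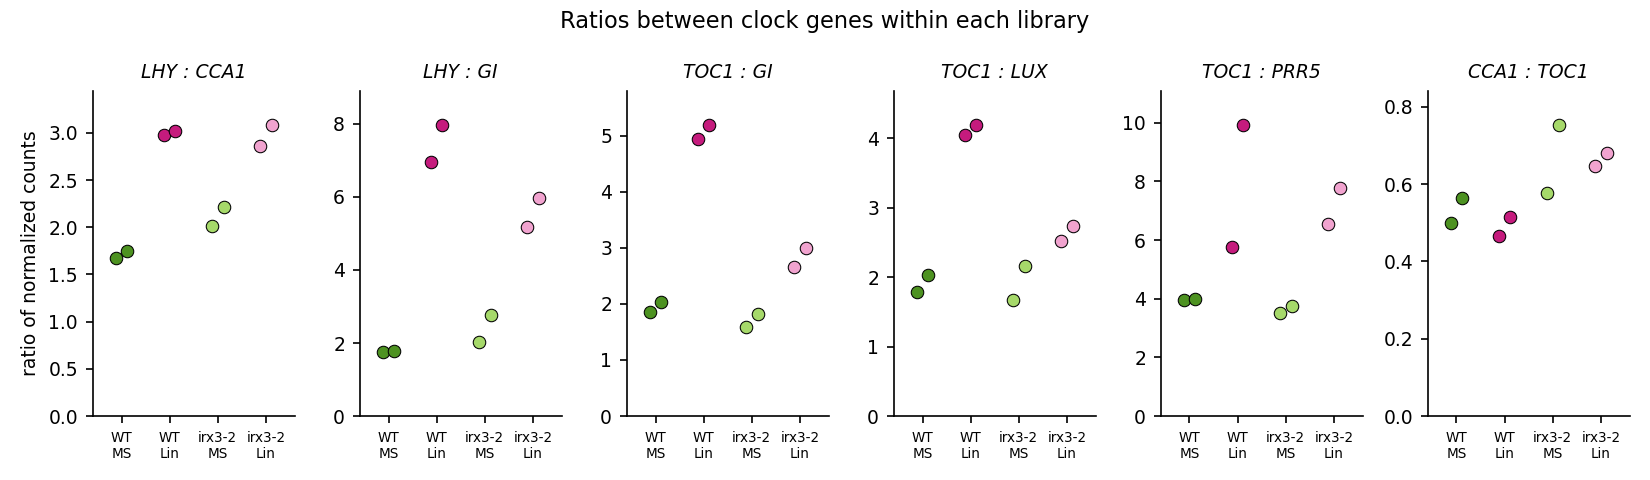
Ratio of the normalized counts of 2 clock genes within a library (y axis, each panel from 0) in the 4 groups; each point is a library. LHY to CCA1 is 1.68 to 2.22 in the MS libraries and 2.87 to 3.08 in the lincomycin libraries, and CCA1 to TOC1 overlaps between media.

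Between the genotypes on MS, 0 of the 10 clock genes were called by limma, against 0.217% of all genes, 0.158% higher and 0.0593% lower. At an unadjusted p under 0.05 there were 2, and edgeR and DESeq2 on the recovered reads also called 0. The members' median log2 difference was −0.12, beside −0.01 over all genes. LHY was 0.39 higher in irx3-2 (95% interval 0.18 to 0.61, limma adjusted p = 0.178) and ELF3 differed from wild type by −0.35 (−0.59 to −0.12, adjusted p = 0.228). Neither passed the test. The irx3-2 libraries of LHY, ELF3, TOC1 and PRR9 did not overlap those of wild type. How many of all genes separate in this way was not counted. PRR9 differed by 1.38 (−0.14 to 2.90) and ELF4 by −0.84 (−1.93 to 0.25), with intervals too wide to read.

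On lincomycin, TOC1 was lower in irx3-2 and was the 1 clock gene called, against 5.68% of all genes, 3.35% higher and 2.33% lower. Its 966 and 926 normalized counts in irx3-2 lay below its 1281 and 1274 in wild type, a 1.35-fold difference (log2 −0.43 ± 0.11, SE, limma adjusted p = 0.0404). The call held in 4 of the 8 fits that left out a library and failed whenever a library from lincomycin medium was the one left out, with adjusted p of up to 0.271, while the difference stayed at −0.40 to −0.46 in those fits. With no filter on low values its adjusted p was 0.0729. On MS the TOC1 difference ran the same way, at −0.22 (95% interval −0.46 to 0.01, limma adjusted p = 0.397). The TOC1 interaction was −0.21 (−0.54 to 0.12, limma adjusted p = 0.621), so a difference particular to lincomycin was not shown. GI was 0.41 higher in irx3-2 on lincomycin (95% interval 0.09 to 0.72, limma adjusted p = 0.136) and was not called. LHY did not part there, with a difference of −0.01 (−0.23 to 0.20). The median over the members was −0.12, beside 0.01 over all genes.

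The lincomycin response itself was compared between genotypes by the interaction, which subtracts the wild-type effect from the irx3-2 effect. Of the 10 clock genes 0 passed in limma, against 0.657% of all genes, 0.356% higher and 0.301% lower, and 1 had an unadjusted p under 0.05; edgeR and DESeq2 also called 0. The effect on LHY was estimated as smaller in irx3-2 by 0.41 on the log2 scale (interaction −0.41, 95% interval −0.71 to −0.10, adjusted p = 0.237), and the differences of GI (0.44, −0.0034 to 0.89, adjusted p = 0.401) and LUX (0.43, −0.15 to 1.01, adjusted p = 0.546) were also estimated nearer 0 there. For PRR5 the interaction was −0.26 (−1.02 to 0.49), so its fall was estimated as larger in irx3-2. None of these differences passed the test. The median interaction over the members was −0.11, beside 0.03 over all genes.

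The authors' deposited table gave an adjusted p under 0.05 to 3 members for lincomycin in wild type (LHY, GI and LUX), against 23.5% of genes with a value, and to 3 in irx3-2 (LHY, GI and PRR5), against 27.7%. Read as lincomycin against MS, for which the sign of the irx3-2 values in the authors' deposited table was turned, LHY had a log2 fold change of 0.89 in wild type and 0.48 in irx3-2, and GI had −1.16 and −0.74. The authors' deposited table, from DESeq2, gave PRR5 in wild type an adjusted p of 0.0733. DESeq2 on the recovered reads did call it, so this gene lay on either side of the threshold with the same tool. Between genotypes the authors' deposited table called 0 members on MS, against 0.801%, and TOC1 on lincomycin, against 8.62%, with an adjusted p of 0.0167.

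Replicate agreement limits what could be seen. The median gap between the 2 libraries of a group over the members was 0.12, 0.12, 0.29 and 0.15 on the log2 scale for the MS and lincomycin pairs of wild type and then of irx3-2, beside 0.26, 0.15, 0.30 and 0.17 over all genes. The members' median gap was thus below that of all genes in each group, in a comparison not matched for level. Beyond the gap that 90% of all genes stayed within lay ELF4 in wild type on MS, PRR9 and PRR5 in wild type on lincomycin, and PRR9 and ELF4 in irx3-2 on lincomycin, which is 2 of 10 members in each lincomycin group. ELF4 differed by 3.13-fold in wild type on MS and PRR9 by 3.43-fold in wild type on lincomycin. In the same MS pair GRP8 and GRP7, clock-controlled RNA-binding proteins, stood at 271 and 749 and at 2712 and 4782 normalized counts. In irx3-2 on MS, PRR3, a relative of TOC1, stood at 242 and 106 and GRP7 at 3913 and 2156. These 3 genes were picked for their gaps. Of the 48 clock-associated genes tested, described below, 1 lay beyond the 90% limit in the wild-type MS pair. In each other group 2 did, so wide gaps were not more common among them than among all genes. GRP7 stayed inside the limit in both MS pairs, with log2 gaps of 0.82 (limit 0.97) and −0.86 (limit 1.08). With no harvest time in the labels, a difference of circadian time between replicates was not tested.

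Across the 8 libraries, the members that changed most ran in parallel or in opposition. GI and LUX had a Pearson r of 0.93, LHY and GI −0.89 and LHY and LUX −0.87, each over 8 libraries that share the same 4 groups. These values are descriptions, since the libraries share groups and media. The clock or clock-associated gene nearest to each member was PRR9 for CCA1 (r = 0.63), CAT3 for LHY (0.92), LNK3 for PRR9 (0.79), LKP2 for PRR7 (0.77) and ELF3 (0.90), RVE2 for PRR5 (0.93), CO for TOC1 (0.82) and GRP8 for ELF4 (0.93). Over all 20250 other genes tested, the nearest to GI was AT1G04940, which encodes the chloroplast import protein Tic20-I (r = 0.996), and the second the plastid tRNA gene TRND (0.99). The nearest to LUX were CLPC1, a chloroplast chaperone of protein import, and DHAR3, a dehydroascorbate reductase (both 0.99). The nearest to LHY were LTPG6, a lipid transfer protein, and TAF4 (both 0.99), and to TOC1 they were AT2G05540 and TPS9 (both 0.99). For CCA1 they were PIL5 (0.93) and AT2G09225 (0.92), for PRR9 AT5G16410 (0.96) and AT4G18460 (0.94), and for PRR7 AT4G10170 (0.99) and AT1G48040 (0.97). MDP40 and AT3G47675 were nearest to PRR5 (both 0.98), DWA3 (0.97) and TRM27 (0.96) to ELF3, and GL2 and BSL2 to ELF4 (both 0.98). Of all members CCA1 had the lowest r to its nearest gene.

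Around the core, 51 clock-associated genes were examined, of which 48 passed the filter and EFL1, FT and COL1 did not. In wild type 5 were called higher and 8 lower on lincomycin, and in irx3-2 6 were called higher and 16 lower, with 11 called in both genotypes. These were 27.1% of the 48 in wild type, near the 29.2% of all genes, and 45.8% in irx3-2, against 33.8%. The lower calls in irx3-2 made up 33.3% of the 48, against 18.0% of all genes. Scaling to the nuclear protein-coding total took away those of RVE1, RVE4, LNK4, CHE, TIC, JMJ30, COR27, CDF2 and PIF5. Over all genes, lower calls in irx3-2 went from 3638 to 2169 under that scaling. The median log2 difference was −0.08 in wild type and −0.13 in irx3-2.

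The REVEILLE family, MYB-like relatives of CCA1 and LHY, had 8 members. In wild type RVE7 rose by 0.66 ± 0.20 and RVE2 fell by 0.91 ± 0.14 (log2 difference ± SE). In irx3-2 RVE7 was higher and 5 were lower, where 18.0% of all genes were lower; 1 of the 5, RVE4, turned to 0.0923 under scaling to the nuclear protein-coding total. Of the rest, RVE3 fell by 2.72 ± 0.45, RVE2 fell by 1.51 ± 0.14 and RVE8, an activator of evening genes, fell by 0.92 ± 0.18. RVE2 went from 2129.5 and 1794 normalized counts to 1163 and 925 in wild type and from 2034 and 1717 to 673 and 636 in irx3-2. RVE8 stood at 323 and 362 on MS and 379 and 302 on lincomycin in wild type, but at 432 and 434 and then 195 and 267 in irx3-2, so its groups overlapped in wild type and were apart in irx3-2. RVE1, which links the clock to auxin, stood on MS at 683 and 717 normalized counts in wild type and at 551 and 630 in irx3-2. On lincomycin, RVE1, RVE2 and RVE4 were lower in irx3-2 than in wild type, with log2 differences of −0.83, −0.66 and −0.59. These 3 calls held in 3, 4 and 4 of the 8 fits that left out a library. RVE2 and RVE4 lost theirs without any lincomycin library, and RVE1 without any MS library of wild type or lincomycin library other than replicate 3 of wild type, at −0.44 without replicate 1 of wild type on lincomycin. RVE7 in wild type was 0.37 (adjusted p = 0.286) without that same library, and its call held in 5 of 8.

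Partners and regulators of the core moved in both directions. LNK2, a coactivator that works with RVE8, rose by 0.45 ± 0.11 in wild type, and LNK4 fell by 0.60 ± 0.20 in wild type and by 0.62 ± 0.20 in irx3-2. CHE, a TCP factor that represses CCA1, fell by 0.46 ± 0.13 and 0.65 ± 0.13, and the wild-type difference became 0.0011 when libraries were scaled to the nuclear protein-coding total. FKF1, a blue-light receptor F-box protein of the ZEITLUPE family, fell by 0.91 ± 0.21 and 1.21 ± 0.21, and 1 of the 3 family members was called in each genotype. Among 14 period and input modifiers, COR28, a cold- and light-responsive repressor, fell by 1.07 ± 0.35 and 1.52 ± 0.35 and CKB3, a subunit of the kinase CK2 that phosphorylates CCA1, rose by 0.47 ± 0.13 in wild type. In irx3-2, PARG1, a poly(ADP-ribose) glycohydrolase, rose by 1.76 ± 0.25 and XCT by 1.26 ± 0.28. On lincomycin JMJ30, a histone demethylase, was lower in irx3-2 (log2 difference −0.67 ± 0.12), as was COR28 (−1.38 ± 0.35). On MS, where neither was called, JMJ30 stood at 533 and 525 normalized counts in wild type and at 446 and 411 in irx3-2. COR28 stood there at 144 and 196 in wild type and at 128 and 60.2 in irx3-2. Of the 8 fits that left out a library, the JMJ30 call held in 4 (lost without any lincomycin library) and the COR28 call in 2 (both without an irx3-2 library on MS), with adjusted p of up to 0.135 and 0.381. For lincomycin in wild type the calls of LNK2, CHE and CKB3 held in 5 of 8, LNK4 in 4, FKF1 in 6 and COR28 in 2. LNK4 was −0.37 (adjusted p = 0.307) without replicate 3 of wild type on lincomycin, and −0.15 (0.539) in wild type and −0.19 (0.414) in irx3-2 when scaled to the nuclear total. In irx3-2 the LNK4 call held in 5 of 8.

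Of 13 clock outputs tested, CAT3, an evening-phased catalase, stood at 11703 and 11275 normalized counts in wild type on MS and 22275 and 22374 on lincomycin, and at 13851 and 17286 and then 30616 and 33038 in irx3-2. Its lincomycin libraries lay above its MS libraries in each genotype, by 0.96 ± 0.12 and 1.04 ± 0.12 on the log2 scale (limma adjusted p = 1.63e-04 and 8.21e-05), and it was higher in irx3-2 than in wild type on lincomycin by 0.51 ± 0.12 (adjusted p = 0.0364). That last call held only in the 2 of 8 fits without an irx3-2 library on MS, with adjusted p of up to 0.262, and was lost with no filter (0.0986) and under the nuclear total (0.0524). CDF1, a repressor of the flowering gene CO, fell by 1.28 ± 0.23 and 1.89 ± 0.23. COL2, a relative of CO, fell by 1.03 ± 0.22 and 1.81 ± 0.22, and 31.8% of its exon bases are covered by AT3G02370 and AT3G02390, both on the opposite strand. COL2 in wild type was −0.69 with an adjusted p of 0.0541 without replicate 3 of wild type on lincomycin.

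**Figure D5:**
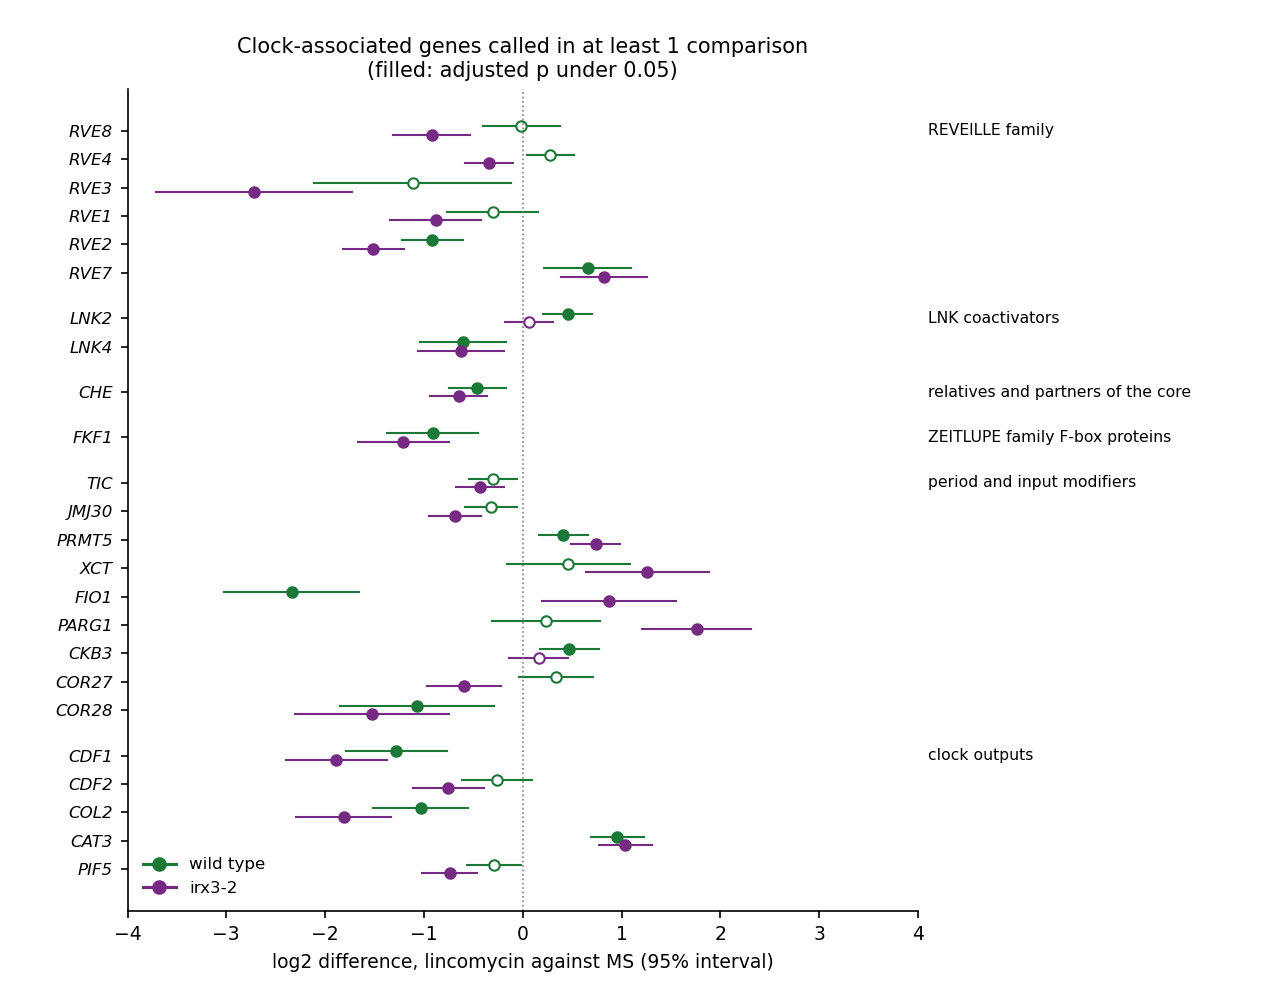
Log2 difference on lincomycin against MS (x axis, bars are 95% intervals) in wild type (green) and irx3-2 (purple) for the 24 clock-associated genes called in at least 1 comparison, grouped by role; filled points passed an adjusted p of 0.05. CAT3 lies near 1 in both genotypes, and FIO1 at −2.34 in wild type and 0.87 in irx3-2.

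Between genotypes on MS, 0 of the 48 associated genes were called by limma and 11 had an unadjusted p under 0.05, and edgeR and DESeq2 also called 0. All genes stood at 0.217% called and 13.5% at an unadjusted p under 0.05, where the associated genes stood at 22.9%. On lincomycin 2 were higher and 5 lower in irx3-2, 14.6% against 5.68% of all genes, and 1 passed the interaction test, 2.08% against 0.657%. That gene was FIO1, an RNA methyltransferase that affects period length. FIO1 stood at 64.3 and 85.8 normalized counts in wild type on MS and 16.5 and 11.7 on lincomycin, and at 79.9 and 63.7 in irx3-2 on MS and 122 and 142 on lincomycin. It was lower on lincomycin in both wild-type libraries and higher in both irx3-2 libraries than in their MS groups. Its log2 difference was −2.34 ± 0.31 in wild type (limma adjusted p = 2.11e-04) and 0.87 ± 0.31 in irx3-2 (adjusted p = 0.0496), and irx3-2 exceeded wild type on lincomycin by 3.15 ± 0.31 (adjusted p = 4.61e-04). The irx3-2 call held only in the 2 of 8 fits without a wild-type library on MS, with adjusted p of up to 0.228, and was lost with DESeq2 (0.0560), TMM scaling (0.0508), a pseudocount of 0.5 (0.0516) and no filter (0.0792). The other 2 differences were called in every fit that left out a library.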

How the data were processed

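RNA sequencing of 8 libraries of 5-day-old seedlings was used, 2 in each of 4 groups. The submitters' processing notes name TopHat2 2.1.1, Trimmomatic, FastQC, featureCounts and DESeq2 and the genome TAIR10; strand and multi-read settings are not given in the sources used here. The authors deposited 4 tables with the same 8 columns of normalized counts (a signal scaled by 1 factor per library), and with DESeq2 log2 fold changes, their standard errors (a score here), p-values and adjusted p-values. All values were whole multiples of 1 number per library to within 0.01, so whole reads were recovered.

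The main test was limma 3.58.1 (R 4.3.3) with a mean-variance trend on log2 of the normalized count plus 1, fitted to all 8 libraries with 4 group means over the 20251 genes that reached 10 normalized counts in 2 or more libraries, with Benjamini-Hochberg adjustment over all of them at 0.05. It was tested on simulated data that gave every gene the same spread beyond counting error. That simulation thus does not cover genes with wide gaps between replicates. Folds on this scale understate the change of low genes. Alternatives were edgeR 4.0.16 and DESeq2 1.42.0 on recovered reads, other pseudocounts (0.5 and 5), no filter, 3 other scalings, a fit on the 4 libraries compared, each library left out, and the replicate number as a block. One read was worth 0.588 to 1.77 normalized counts, and limma's intervals carry both counting error and the spread between libraries. Sequences and positions came from RefSeq TAIR10.1; no coordinates were in the deposited tables. All 10 clock genes were named. Clock-associated genes were named with values where called, up to 3 of the largest differences per role and comparison; FIO1 in irx3-2, RVE4 and genes named for replicate gaps were added after their values were seen. The members and lists were chosen with earlier results of these data known.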

Additional observations from a re-analysis of the deposited data

Results flagged for a closer look

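One gene around the clock was singled out because its lincomycin effect differed between the genotypes in the interaction test. FIO1 (AT2G21070), which was lower on lincomycin in wild type and higher in irx3-2, had a log2 interaction of 3.21 ± 0.44 (SE, limma adjusted p = 0.0101), in the direction of both libraries of each lincomycin group. The adjusted p was 0.00378 with edgeR and 0.0572 with no filter on low values. It was 0.0549, 0.0822, 0.0956 and 0.0984 when 1 of the 4 lincomycin libraries was left out, with log2 values of 2.98 to 3.44. No cause was tested.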

How the results depend on the processing

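The lincomycin comparison called 4 of the 10 clock genes in wild type (3 to 4 with 1 library left out) and 3 in irx3-2 (2 to 5). The fits with a library left out gave 0 to 0 between genotypes on MS, 0 to 2 on lincomycin and 0 to 0 for the interaction. The 5 in irx3-2 came without replicate 2 of irx3-2 on MS, which added LUX and PRR7. On lincomycin the count between genotypes was 0 without any 1 of the 4 lincomycin libraries and 2 without either irx3-2 library on MS, where GI joined TOC1 at adjusted p of 0.0496 and 0.0487. That count was also 0 with no filter on low values and 2 in the fit on the 4 libraries compared, against 1.

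Scaling to the nuclear protein-coding total turned the direction of CCA1 (0.43), TOC1 (0.42), ELF3 (0.31) and RVE4 (0.0923) for lincomycin in irx3-2 and of CHE (0.0011) in wild type; it shifts every gene alike. It also took estimates that were not called on either scale across 0: ELF3 (−0.25 to 0.21), PRR7 (−0.02 to 0.44) and PRR9 (−0.12 to 0.31) in wild type, and PRR7 (−0.16 to 0.27) in irx3-2. PRR5 in wild type was also not called with no filter (adjusted p = 0.0936) or in the 4-library fit (0.0778).

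The correlation of same-numbered libraries' deviations from their group means ran from −0.137 to 0.126. With 2 libraries per group the deviations mirror each other, so this check cannot decide whether replicate numbers paired the samples. With the number as a replicate block 4 clock genes were called for lincomycin in wild type, 2 in irx3-2, and 0 in each of the other comparisons, the genotypes on lincomycin among them; PRR5 in irx3-2 (adjusted p = 0.0529) and TOC1 (0.245) lost their calls. Of the 43 calls of clock-associated genes 18 were lost with the block, among them RVE1, RVE2, RVE4, JMJ30, COR28 and CAT3 between genotypes on lincomycin and the FIO1 interaction (3.61, adjusted p = 0.0614). No filter lost 10, the nuclear total 14, and leaving out 1 library lost 2 to 17.

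Counts over all genes moved by over 1.5 times as follows. For lincomycin the nuclear total gave 10495 against 5921 in wild type and 10433 against 6835 in irx3-2. On MS the count of 44 became 4 with no filter, 0 in the 4-library fit, 18 with the block and 136 with DESeq2; on lincomycin 1150 became 580, 3311 and 337 in the first 3; for the interaction 133 became 29 with no filter, 24 with the block and 376 with DESeq2. Leaving out 1 library gave 3300 to 7117, 3828 to 7252, 16 to 903, 116 to 1961 and 11 to 361 in the 5 comparisons. PRR9 rested on 8 to 40 reads per library and ELF4 on 20 to 182, and both had wide gaps between replicates; depth and replicate spread were not separated.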
